A study of Caenorhabditis elegans with 4 samples.

Results

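The 9 genes described here, unc-55, irx-1, hbl-1, oig-1, unc-8, ced-3, ced-4, cyy-1 and cdk-5, are known regulators and effectors of synapse remodeling in the DD motor neurons of the nematode Caenorhabditis elegans. They were taken by symbol from the 41602 genes to which the transcript accessions of the deposited expression table could be matched, and all 9 were found. RNA-seq had been run on whole larvae of 2 genotypes. The first was a strain carrying the uf171 allele of dve-1, which encodes a homeodomain transcription factor, and the second was wild type, with 2 libraries each. All animals were grown at 25 °C on Escherichia coli OP50 plates and synchronized at the first larval stage (L1), with about 1200 larvae collected for RNA. The sample names and stage labels give L4, the last larval stage, while the protocol text speaks of L1 larvae, so the stage is given as labelled. The labels do not say what lesion uf171 is, and they leave unsaid whether the libraries of a genotype stem from different cultures. The p-values therefore speak of variation among these 4 libraries alone, and that variation may be technical.

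DD neurons are GABA motor neurons that are born in the embryo and first release onto ventral muscle. As the larva grows they rewire without moving their processes: the presynaptic sites are taken apart ventrally and rebuilt dorsally, while the acetylcholine receptors that receive input are moved the other way. The related VD neurons, born later, do not rewire, because the nuclear receptor UNC-55 holds the program down in them. Remodeling is timed by transcription factors such as HBL-1 and driven by IRX-1, and is carried out by channel, caspase and kinase proteins in the DD neurons themselves.

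Values are FPKM, in which fragment numbers are divided by transcript length and by library size, summed here over the accessions of a gene. The steps between low values correspond to about 14300000 and 14010000 fragments in dve-1 mutant replicates 1 and 2, while wild type replicates 1 and 2 had about 14930000 and 15250000. dve-1 itself read 22.98 and 21.13 FPKM in the mutant libraries, against 14.19 and 13.87 FPKM in wild type. These values do not check the genotype, because FPKM cannot show the allele. In the limma fit described below, the log2 fold change of dve-1 was 0.62 (SE 0.18). Its unadjusted p was 0.0282 and its adjusted p 0.874, so it did not pass. The library medians over all tested genes lay at 4.25 and 4.41 log2 units in mutant replicates 1 and 2, and at 4.44 and 4.24 log2 units in wild type replicates 1 and 2. An exact 0 in this table can be a failed estimate: dhc-1, the heavy chain of cytoplasmic dynein, was listed at 0 in all 4 libraries.

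In whole larvae labelled L4, none of the 9 remodeling genes differed between dve-1 mutant and wild type beyond the spread between libraries. Levels at any other stage, and in the DD neurons alone, were not measured. In limma, a linear model with a spread shared across genes, on log2(FPKM + 1), 0 of 9 passed a Benjamini-Hochberg adjusted p of 0.05 and 0 of 9 had an unadjusted p under 0.05, against 0.130% and 4.60% of the 14652 genes tested. All 9 had an adjusted p of 0.99955, and their unadjusted p ran from 0.442 to 0.949. The 95% intervals still allow changes on the FPKM + 1 scale, with upper bounds from 1.46-fold for cdk-5 to 2.22-fold for hbl-1 and lower bounds from 0.758-fold for cdk-5 to 0.470-fold for hbl-1. The mutant and wild type libraries overlapped for all 9 genes, whereas they did not overlap for 28.1% of all tested genes. The log2 fold change of the 9 genes, mutant minus wild type, had a median of 0.07, beside -0.02 over all tested genes. In absolute size the median was 0.08 for the 9 genes and 0.18 for all tested genes. The sign was positive for 7 genes and negative for 2, where 46.2% and 53.8% of all tested genes were positive and negative, and it turned for 7 of the 9 when 1 library was left out. With 2 libraries against 2, an exact permutation test of 1 gene cannot give a two-sided p below 0.333.

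**Figure D1:**
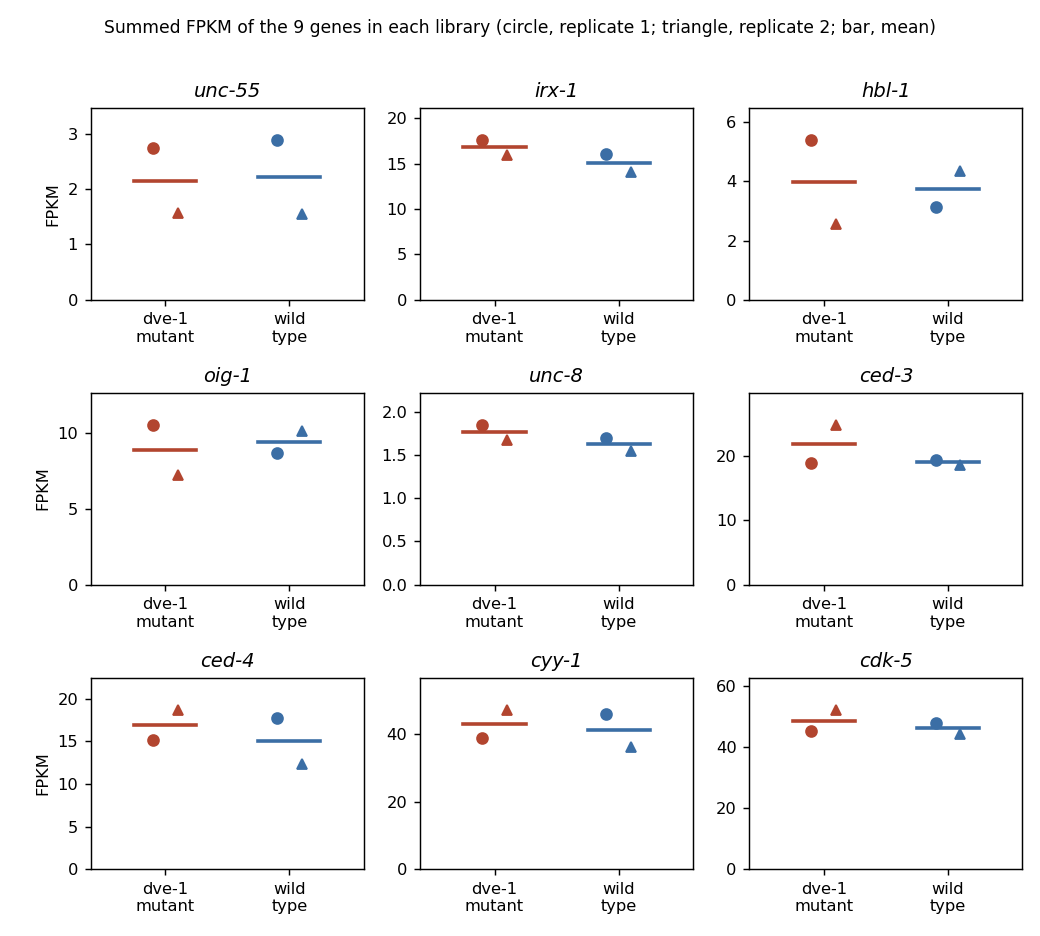
Summed FPKM of the 9 remodeling genes (vertical axis, from 0) in the dve-1 mutant libraries (left in each panel) and the wild type libraries (right), with circles for replicate 1, triangles for replicate 2 and bars for the mean of 2 libraries. The points of the genotypes overlap in every panel. For unc-55, among others, the replicates of each genotype lie farther apart than the genotype means.

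The regulators come first. unc-55 (F55D12.4; chromosome I, 7898434 to 7903334 on the minus strand, WBcel235) encodes the nuclear receptor of VD neurons that blocks remodeling there. Its values were 2.75 and 1.56 FPKM in the mutant libraries, against 2.89 and 1.55 FPKM in the wild type libraries. Replicate 1 was high and replicate 2 low in both genotypes, so the genotype means of 2.16 ± 0.841 and 2.22 ± 0.949 FPKM (SD, n = 2 each) lay closer to each other than the replicates did. The log2 fold change was -0.03 (SE 0.37, 95% interval -1.08 to 1.03), and these levels rest on an estimated 23 to 74 fragments a library. Of the 1722 exonic nucleotides of unc-55, 49 also lie in exons of F55D12.6 on the opposite strand. As the sources used here do not say that counting used strand, fragments there cannot be assigned. F55D12.6 itself read 16.7 and 33.3 FPKM in the mutant libraries, against 38.6 and 25.0 FPKM in wild type. Its part in the unc-55 values was not tested.

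irx-1 (C36F7.1; chromosome I, 9536465 to 9540966 on the minus strand) encodes the Iroquois homeodomain factor that UNC-55 represses in VD neurons and that promotes removal of the ventral synapses in DD neurons. It read 17.6 and 15.995 FPKM in the mutant libraries and 16.1 and 14.1 FPKM in the wild type libraries. The highest library was a mutant one and the lowest a wild type one, but wild type replicate 1 lay above mutant replicate 2. Means were 16.8 ± 1.15 FPKM in the mutant and 15.07 ± 1.43 FPKM in wild type (SD, n = 2 each). The log2 fold change was 0.15 (SE 0.19, 95% interval -0.40 to 0.70), so on the FPKM + 1 scale the interval reaches from 0.757-fold to 1.62-fold. Stretches of its 1869 exonic nucleotides are shared with neighbours: 276 with C41G7.7 on the same strand and 299 with the non-coding gene C41G7.13 on the opposite strand. C41G7.13 itself read 73.5 and 76.02 FPKM in the mutant libraries, against 83.9 and 57.2 FPKM in wild type, and its part in the irx-1 values was not tested.

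hbl-1 (F13D11.2; chromosome X, 5822142 to 5827755 on the plus strand) encodes a Hunchback-like zinc finger factor of the heterochronic pathway, which sets the timing of larval events, DD remodeling among them. It read 5.41 and 2.58 FPKM in the mutant libraries, against 3.12 and 4.34 FPKM in the wild type libraries. The mutant libraries were the highest and the lowest of the 4, so the wild type values lay between them. Means were 3.99 ± 2.00 FPKM in the mutant and 3.73 ± 0.865 FPKM in wild type (SD, n = 2 each). Among the 9 genes hbl-1 had the widest range over the libraries, 2.10-fold, and the widest interval, -1.09 to 1.15 around a log2 fold change of 0.03 (SE 0.40).

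oig-1 (C09E7.3; chromosome III, 6524051 to 6525657 on the minus strand) acts on the receiving side. It encodes a small protein with a single immunoglobulin domain that keeps acetylcholine receptors from being moved too early, and its loss lets DD receptors move before time. oig-1 read 10.6 and 7.27 FPKM in the mutant libraries and 8.67 and 10.1 FPKM in the wild type libraries. As for hbl-1, the mutant libraries enclosed the wild type ones. Means were 8.93 ± 2.34 FPKM in the mutant and 9.41 ± 1.04 FPKM in wild type (SD, n = 2 each), and the log2 fold change was -0.09 (SE 0.27, 95% interval -0.85 to 0.68). With a transcript of 500 nucleotides, these values rest on an estimated 51 to 77 fragments a library.

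unc-8 (R13A1.4; chromosome IV, 7197153 to 7203660 on the plus strand) encodes a subunit of a DEG/ENaC sodium channel whose activity promotes the removal of ventral presynaptic material in DD neurons. It had the lowest level of the 9, at 1.85 and 1.68 FPKM in the mutant libraries and 1.69 and 1.55 FPKM in the wild type libraries. It also had the smallest SD over the 4 libraries, 0.123 FPKM. Wild type replicate 1 lay just above mutant replicate 2, so the genotypes overlapped. Means were 1.76 ± 0.125 FPKM in the mutant and 1.62 ± 0.102 FPKM in wild type (SD, n = 2 each), with a log2 fold change of 0.08 (SE 0.23, 95% interval -0.58 to 0.73). This gene had an estimated 52 to 66 fragments a library, and on the log2(FPKM + 1) scale a change of so low a gene is understated.

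ced-3 and ced-4 encode the caspase and its Apaf-1-like activator of the cell death pathway, which also takes part in dismantling synapses in living neurons. ced-3 (C48D1.2; chromosome IV, 13198261 to 13204137 on the minus strand) read 18.98 and 24.9 FPKM in the mutant libraries and 19.4 and 18.6 FPKM in the wild type libraries. Mutant replicate 2 stood above the other libraries, and mutant replicate 1 lay between the wild type ones. With a 95% interval of -0.43 to 0.80, its log2 fold change of 0.19 (SE 0.22) was the largest of the 9 in absolute size, and 49.0% of all tested genes had a larger one. Without mutant replicate 2 it was -0.00025.

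ced-4 (C35D10.9; chromosome III, 4852325 to 4855171 on the plus strand) read 15.2 and 18.7 FPKM in the mutant libraries and 17.8 and 12.4 FPKM in the wild type libraries. The lowest library was wild type replicate 2, and without it the log2 fold change of 0.17 (SE 0.27, 95% interval -0.59 to 0.94) turned to -0.07. In each of the 4 libraries ced-3 stood above ced-4 on the FPKM scale, which is per length.

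cyy-1 and cdk-5 encode a cyclin Y and the kinase CDK-5, which act in DD neurons on the removal of old synapses and the transport of synaptic material to new ones. cyy-1 (ZK353.1; chromosome III, 8405874 to 8409399 on the plus strand) read 38.9 and 47.3 FPKM in the mutant libraries and 46.1 and 36.3 FPKM in the wild type libraries. The wild type libraries fell near both ends of the mutant range, with means of 43.1 ± 5.92 FPKM in the mutant and 41.2 ± 6.92 FPKM in wild type (SD, n = 2 each). The log2 fold change was 0.07 (SE 0.22, 95% interval -0.54 to 0.68).

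cdk-5 (T27E9.3; chromosome III, 13464687 to 13466342 on the minus strand) read 45.2 and 52.4 FPKM in the mutant libraries and 47.9 and 44.5 FPKM in the wild type libraries. It had the narrowest interval of the 9, -0.40 to 0.55 around a log2 fold change of 0.07 (SE 0.17), or 0.758-fold to 1.46-fold on the FPKM + 1 scale. Its values rest on an estimated 683 to 776 fragments a library. Of its 1057 exonic nucleotides, 85 lie in exons of kel-3 on the opposite strand, and kel-3 read 18.8 and 18.6 FPKM in the mutant libraries and 20.4 and 19.3 FPKM in the wild type libraries.

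**Figure D2:**
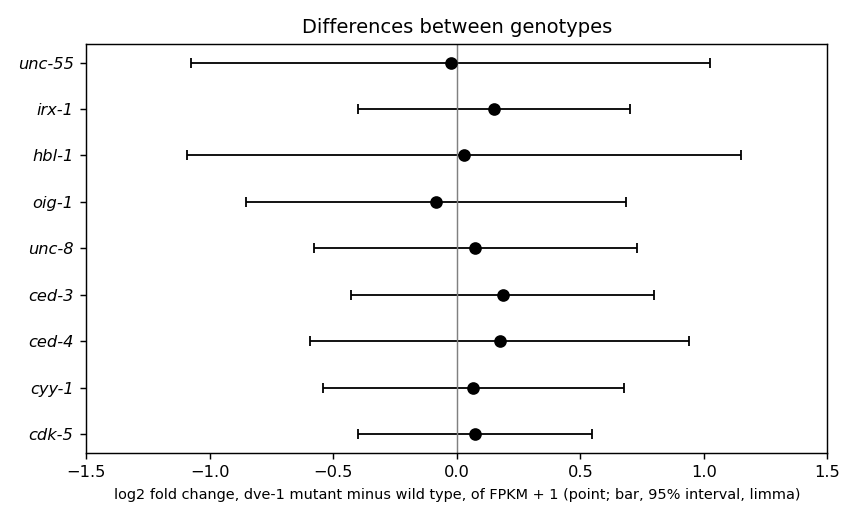
Log2 fold change of FPKM + 1 for each remodeling gene, mutant minus wild type (horizontal axis), with the 95% interval from limma (bar). Every interval holds 0, from the narrowest for cdk-5 (-0.40 to 0.55) to the widest for hbl-1 (-1.09 to 1.15).

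By level the 9 genes fell into groups. cdk-5 and cyy-1 were highest, with means over the 4 libraries of 47.5 ± 3.58 and 42.1 ± 5.37 FPKM (SD, n = 4), and their ranges overlapped. ced-3, ced-4 and irx-1 followed at 20.5 ± 2.96, 16.02 ± 2.86 and 15.9 ± 1.46 FPKM. In that group ced-4 overlapped with both others, while every ced-3 value lay above every irx-1 value. oig-1, at 9.17 ± 1.504 FPKM, overlapped with no neighbour in the order. hbl-1, unc-55 and unc-8 were lowest, at 3.86 ± 1.27, 2.19 ± 0.733 and 1.69 ± 0.123 FPKM. unc-55 overlapped with both hbl-1 and unc-8, and the last pair did not overlap with each other. Among the 13467 protein-coding genes tested, 73.5% had a lower mean than cdk-5 and 5.52% a lower mean than unc-8. In RNA of whole larvae the DD and VD neurons are a small part of the cells, and fewer cells of a type cannot be told apart from less RNA per cell.

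The 9 genes carry 17 annotated RefSeq transcript accessions, all of which are in the table, and 6 genes have more than 1. How the fragments of a gene were shared out among its accessions varied between libraries of the same genotype. The whole of unc-55 was placed on NM_001129010 in mutant replicate 1, at 2.75 FPKM, and on NM_001129011 in the other 3 libraries, at 1.56 FPKM in mutant replicate 2 and 2.89 and 1.55 FPKM in wild type. For unc-8 the leading accession was NM_001307365 in mutant replicate 1 and wild type replicate 2, NM_001307363 in mutant replicate 2 and NM_001307364 in wild type replicate 1. The leading accession thus changed within both genotypes for unc-8 and within the mutant for unc-55 and hbl-1, while ced-3, ced-4 and cyy-1 kept theirs in all 4 libraries. Such changes are common at low levels: the leading accession was not the same in all 4 libraries for 50.5% of 410 protein-coding genes with several accessions and a mean under 5 FPKM, and for 28.1% of 2640 such genes with a mean of at least 5 FPKM.

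**Figure D3:**
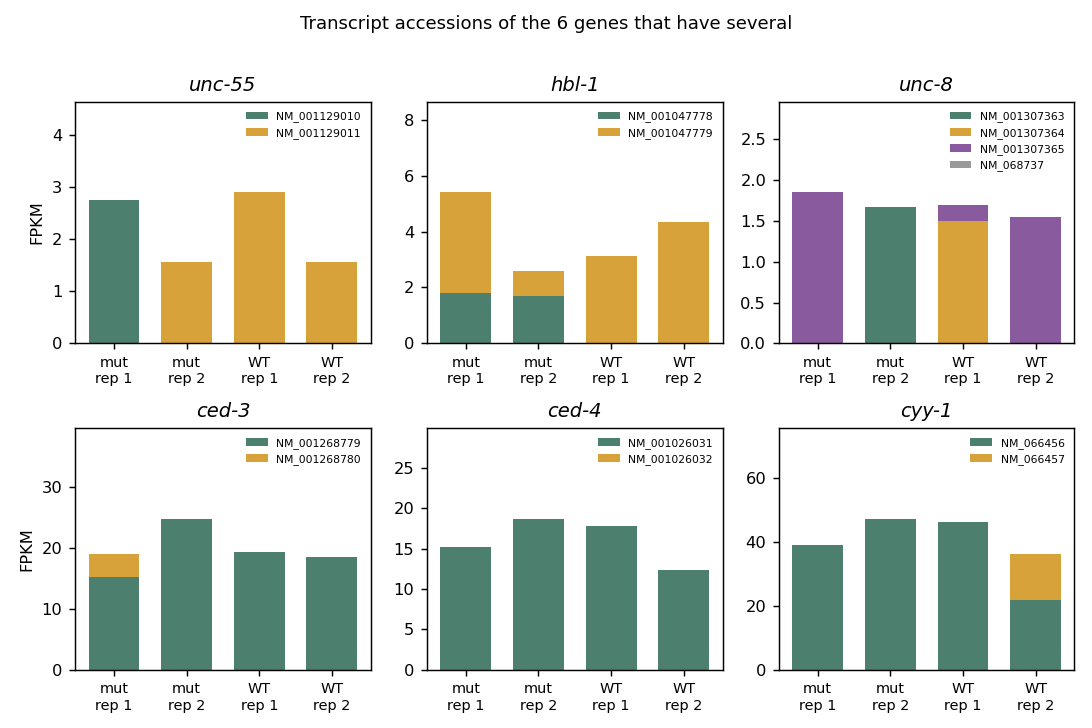
FPKM of each transcript accession (stacked, vertical axis from 0) of the 6 remodeling genes with several accessions, in dve-1 mutant replicates 1 and 2 (mut, left) and wild type replicates 1 and 2 (WT, right). For hbl-1 the lower block, NM_001047778, is present in both mutant libraries, with unlike shares, and listed at 0 in wild type. The blocks of unc-55 change within the mutant and those of unc-8 within both genotypes.

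hbl-1 was the only gene of the 9 with an accession that separated the genotypes. Its accession NM_001047778 read 1.81 and 1.68 FPKM in the mutant libraries and had a listed value of 0 in each wild type library, so no fold is given. The other accession, NM_001047779, read 3.60 and 0.897 FPKM in the mutant libraries and 3.12 and 4.34 FPKM in the wild type libraries. NM_001047778 made up 33.5% and 65.2% of hbl-1 FPKM in mutant replicates 1 and 2. In the limma fit over 20088 accessions its unadjusted p was 0.00914 and its adjusted p 0.495, so it did not pass. The table holds 187 tested accessions (0.931%) above 0 in both mutant libraries but listed at 0 in both wild type ones, and 193 (0.961%) with the opposite pattern. The annotation gives hbl-1 a transcript of 4478 nucleotides in 8 exons and one of 2883 nucleotides in 7 exons, which the table does not pair with the accessions. Of the 17 accessions, 10 were tested and 0 passed with limma, against 0.0498% of all accessions. At an unadjusted p under 0.05 there was 1, against 4.99%, and the 1 with groups that did not overlap stands beside 29.0% of all accessions.

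Other accessions were seen in 1 library alone. NM_001268780 of ced-3 read 3.75 FPKM in mutant replicate 1, where it made up 19.8% of the gene, and was listed at 0 elsewhere. NM_066457 of cyy-1 read 14.5 FPKM in wild type replicate 2, 39.9% of the gene, and was listed at 0 in the other 3 libraries, so the main accession of cyy-1 stood at 21.8 FPKM there and at 38.9, 47.3 and 46.1 FPKM in mutant replicates 1 and 2 and wild type replicate 1. NM_001026032 of ced-4 and NM_068737 of unc-8 were listed at 0 in every library.

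Differences between libraries of the same genotype were shared by several of the genes. cdk-5, cyy-1, ced-3 and ced-4 had their highest values in mutant replicate 2 and wild type replicate 1, and hbl-1 and oig-1 had their lowest values in the same pair of libraries. unc-55 was high in replicate 1 of both genotypes. hbl-1 deviated from its own mean by 0.44 and -0.41 log2 units in mutant replicates 1 and 2, and by -0.20 and 0.17 log2 units in wild type replicates 1 and 2. ced-4 deviated by -0.06 and 0.23 log2 units in mutant replicates 1 and 2, and by 0.16 and -0.33 log2 units in wild type replicates 1 and 2. The same libraries, mutant replicate 2 and wild type replicate 1, had the higher medians over all tested genes. They also had the higher medians of 11 germline marker genes, with 25.8 and 29.6 FPKM in mutant replicates 1 and 2, beside 30.6 and 24.998 FPKM for wild type. The part of germline content in the values of the 9 genes was not tested. With libraries centred on their medians, 0 of 9 passed as well.

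**Figure D4:**
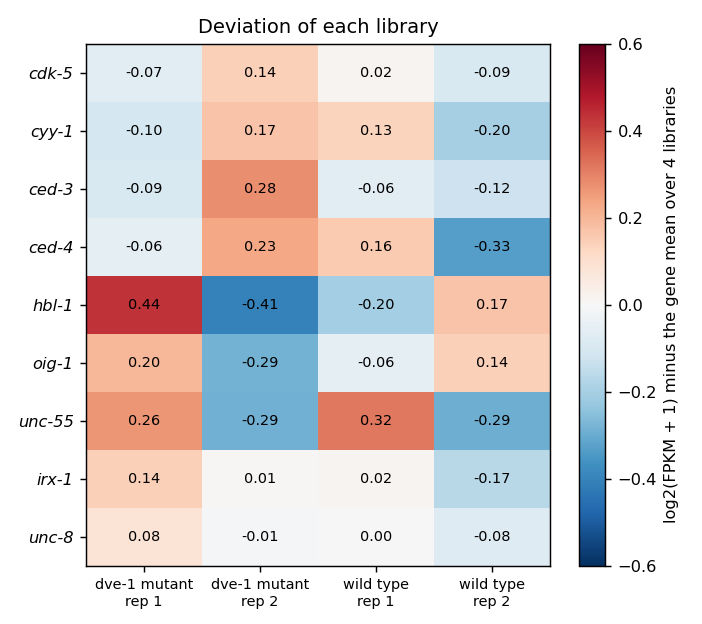
Deviation of each library from the mean of the gene over 4 libraries, in log2(FPKM + 1) (colour and printed value), for dve-1 mutant replicates 1 and 2 (left columns) and wild type replicates 1 and 2 (right columns). The upper 4 genes are highest in mutant replicate 2 and, next to it, wild type replicate 1, while hbl-1 and oig-1 are lowest there (-0.41 and -0.20 log2 units for hbl-1).

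The 7 lists of other genes of the same pathways held 96 genes, of which 85 were in the table and 74 were tested. In limma 0 of the 74 passed in either direction, against 0.130% of all tested genes, and 0 had an unadjusted p under 0.05, against 4.60%. By sign 32 were higher and 42 lower, where 46.2% and 53.8% of all tested genes were higher and lower. The libraries of the genotypes did not overlap for 18 of the 74, beside 28.1% of all tested genes. With 1 library left out, the median of 6 of the 7 lists changed sign, and the list of CDK-5, PCT-1 and synaptic transport was the exception.

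Heterochronic timing genes, the pathway of hbl-1, had 8 tested members, 4 higher and 4 lower by sign, and their median was -0.05 log2 units. lin-42, the worm period gene, read 949 and 975 FPKM in the mutant libraries and 1415 and 1107 FPKM in the wild type libraries (log2 fold change -0.38, SE 0.17). The let-7 microRNA gene read 415 and 812 FPKM in the mutant libraries and 892 and 925 FPKM in the wild type libraries (log2 fold change -0.65, SE 0.37). Mutant replicate 1 lay furthest from the others. As the kit is not given, it is not known whether values at microRNA genes reflect the mature microRNA. lin-41, a target of let-7 in C. elegans, read 10.3 and 12.6 FPKM in the mutant libraries and 8.997 and 7.53 FPKM in the wild type libraries. Whether the lin-41 and let-7 values are linked was not tested. lin-14, a timing factor that holds DD remodeling back and that was singled out after its values were seen, read 27.2 and 20.4 FPKM in the mutant libraries and 18.44 and 18.37 FPKM in the wild type libraries. Of the 8 tested genes the genotypes did not overlap for these 4, beside 28.1% of all tested genes, and each of the 4 had a limma adjusted p of 0.99955. The microRNA genes mir-48 and mir-84 were listed at 0 in all 4 libraries.

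Genes around CED-3 gave 5 tested members of 11 listed, with 2 higher and 3 lower by sign, and their median was -0.17 log2 units. In that list cps-6, a mitochondrial endonuclease of cell death, read 149 and 135 FPKM in the mutant libraries and 149 and 172 FPKM in the wild type libraries. The caspase-like genes csp-1 and csp-3 had log2 fold changes of -0.37 (SE 0.41) and -0.27 (SE 0.34). Of 9 genes for the engulfment of cell corpses, 2 were higher and 7 lower by sign, with a median of -0.10.

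For CDK-5, PCT-1 and synaptic transport, 16 genes were tested, 7 higher and 9 lower by sign, with a median of -0.04. cdka-1, the activating partner of CDK-5, read 16.8 and 21.6 FPKM in the mutant libraries and 24.8 and 23.5 FPKM in the wild type libraries (log2 fold change -0.33, SE 0.21, 95% interval -0.92 to 0.27). cebp-1, a bZIP factor of the DLK-1 pathway, read 30.4 and 29.4 FPKM in the mutant libraries and 50.04 and 31.5 FPKM in the wild type libraries. pmk-3, a kinase of the DLK-1 pathway, was listed at 0 in mutant replicate 2 and read 7.18, 11.9 and 4.96 FPKM in mutant replicate 1 and wild type replicates 1 and 2.

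DEG/ENaC channel and calcium signalling genes, the group of unc-8, had 12 tested members, 7 higher and 5 lower by sign, with a median of 0.05 and values from -0.15 to 0.23. tax-6, the calcineurin catalytic subunit, read 15.9 and 13.4 FPKM in the mutant libraries and 12.7 and 11.9 FPKM in the wild type libraries (log2 fold change 0.23, SE 0.20). Endocytosis and branched actin genes, among them genes whose products recycle synaptic vesicles, had 20 tested members. Of these, 7 were higher and 13 lower by sign, with a median of -0.05. aps-2, a subunit of the AP2 clathrin adaptor, read 126 and 118 FPKM in the mutant libraries and 158 and 142 FPKM in the wild type libraries (log2 fold change -0.30, SE 0.14).

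Of the relatives of oig-1 with a single immunoglobulin domain, 4 were tested, 3 higher and 1 lower by sign, with a median of 0.02 log2 units. oig-2 read 90.0 and 78.0 FPKM in the mutant libraries and 105.2 and 142 FPKM in the wild type libraries, with groups that did not overlap (log2 fold change -0.54, SE 0.22, unadjusted p 0.0685, limma). oig-3 went the other way by sign, with 35.5 and 30.5 FPKM in the mutant libraries and 16.4 and 33.2 FPKM in the wild type libraries (log2 fold change 0.48, SE 0.39), and its groups overlapped. oig-5 read 6.30 and 5.05 FPKM in the mutant libraries and 6.08 and 5.18 FPKM in the wild type libraries. oig-4, the other tested relative, was listed at 0 in mutant replicate 2 and wild type replicate 1 and read 18.6 and 17.6 FPKM in mutant replicate 1 and wild type replicate 2.

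**Figure D5:**
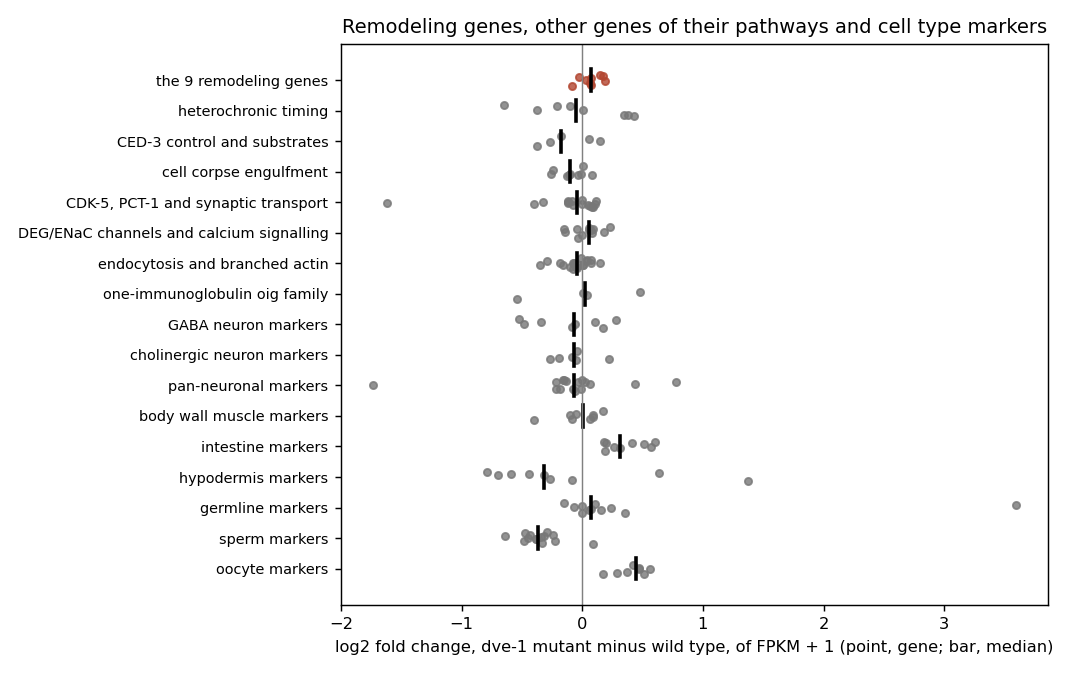
Log2 fold change of each tested gene, dve-1 mutant minus wild type (horizontal axis, log2 of FPKM + 1; points are genes, bars are medians), for the 9 remodeling genes (top row), lists of other genes of their pathways and lists of cell type markers. The 9 genes lie between -0.09 and 0.19, while sperm markers have a median of -0.36 and oocyte markers of 0.44. The point at the far right is pgl-1, which is listed at 0 in wild type.

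Markers of the cell types in a larva were compared in the same fit, and 0 of 89 tested passed, against 0.130% of all tested genes. At an unadjusted p under 0.05 there were 4 of 89, against 4.60%, and the genotypes did not overlap for 29 of 89, against 28.1%. The smallest p belonged to pgl-1, a germ granule gene, which read 10.4 and 11.9 FPKM in the mutant libraries, whereas each wild type library has it at a listed 0, so no fold is given (limma unadjusted p 0.000133, adjusted p 0.0574). It was followed by bli-1, a cuticle collagen gene, with 284 and 227 FPKM in the mutant libraries and 430 and 450.2 FPKM in the wild type libraries (limma unadjusted p 0.00999, adjusted p 0.558). With 1 library left out, the median of 6 of the 9 marker lists changed sign, and those of pan-neuronal, intestine and hypodermis markers kept it.

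GABA neuron markers, which mark DD and VD neurons among others, had 3 tested members higher and 5 lower by sign, with a median of -0.07 and summed levels of 180 and 167 FPKM in the mutant libraries and 206 and 189 FPKM in the wild type libraries. None of the 8 was listed at 0 in all libraries. The genotypes did not overlap for 4 of the 8, 1 higher and 3 lower, beside 28.1% of all tested genes. In that list unc-25, the enzyme that makes GABA, read 37.4 and 34.8 FPKM in the mutant libraries and 46.2 and 46.1 FPKM in wild type. The transthyretin-like gene ttr-39 read 20.7 and 19.7 FPKM in the mutant libraries and 30.8 and 28.3 FPKM in the wild type libraries. The limma unadjusted p was 0.0889 for unc-25 and 0.0393 for ttr-39. unc-46, which helps load GABA into vesicles, read 4.63 and 2.65 FPKM in the mutant libraries and 4.65 and 6.13 FPKM in the wild type libraries. Other members were higher in the mutant by sign. unc-30, the homeodomain factor that specifies these neurons, read 4.95 and 4.91 FPKM in the mutant libraries and 4.15 and 4.40 FPKM in the wild type libraries. snf-11, a GABA transporter, read 13.6 and 7.12 FPKM in the mutant libraries and 8.49 and 7.43 FPKM in the wild type libraries. Their log2 fold changes were 0.17 (SE 0.21) for unc-30 and 0.28 (SE 0.37) for snf-11, and neither passed. Cholinergic neuron markers had a median of -0.07 over 6 genes. Pan-neuronal markers had 4 higher and 12 lower by sign, with a median of -0.07 and summed levels of 776 and 720 FPKM in the mutant libraries and 777 and 810 FPKM in the wild type libraries.

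The marker lists of other tissues did not all go the same way by sign, and none of their genes passed. Of all tested genes, 46.2% were higher and 53.8% lower by sign. Intestine markers were higher by sign for 9 of 9 (median 0.31), and hypodermis markers lower for 7 of 9 (median -0.32). The genotypes did not overlap for 5 of 9 intestine markers, all higher, and 6 of 9 hypodermis markers, 1 higher and 5 lower. This held for 1 of 8 body wall muscle, 2 of 11 germline, 3 of 14 sperm and 0 of 8 oocyte markers. Over all tested genes the share was 28.1%. Body wall muscle markers had a median of 0.0041. Among them lev-11 read 2345 and 2143 FPKM in the mutant libraries and 3024 and 2885 FPKM in wild type. In limma its unadjusted p was 0.0347 and its adjusted p 0.948. Sperm markers summed to 2095 and 5249 FPKM in mutant replicates 1 and 2 and to 5065 and 3750 FPKM in wild type, and their median log2 fold change of -0.36 was 0.21 without mutant replicate 1. Oocyte markers summed to 142 and 404 FPKM in mutant replicates 1 and 2 and to 208 and 153 FPKM in wild type, and their median of 0.44 was -0.31 without mutant replicate 2. The part of these tissues in the values of the 9 genes was not tested.

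For each remodeling gene the protein-coding genes with the most similar profile over the 4 libraries were found. Likeness was the root mean square difference of log2(FPKM + 1) after the mean of each gene was taken off. Nearest to hbl-1 were the laminin gene lam-3, at 0.0302 log2 units, and C18G1.1, at 0.0393 log2 units. lam-3 read 7.62 and 4.04 FPKM in the mutant libraries and 4.84 and 6.49 FPKM in the wild type libraries. Nearest to oig-1 were mec-5, a collagen gene, and Y106G6E.4, at 0.0107 and 0.0138 log2 units, and nearest to unc-55 were the fatty acid desaturase gene fat-6 and the caveolin gene cav-2, at 0.0327 and 0.0413 log2 units. fat-6 read 958 and 647 FPKM in the mutant libraries and 938 and 644 FPKM in the wild type libraries. With only 4 libraries such likeness is common: 53 genes lay within 0.1 log2 units of unc-55, 94 of hbl-1, 548 of oig-1 and 1820 of unc-8. For irx-1 the nearest were Y71G12B.23 and F23F1.4, for unc-8 hrpr-1 and C37H5.5, for ced-3 Y54G2A.10 and mttu-1, for ced-4 K02F3.12 and tftc-3, for cyy-1 aph-1 and ZK546.2, and for cdk-5 rbm-3.2 and tut-2.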

How the data were processed

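Each row of the deposited table gives a RefSeq transcript accession with 1 value for each of the 4 libraries, in 52491 rows. The header names no unit. The values are taken as FPKM made by the authors: they are not whole numbers, and TopHat2, Cufflinks and the ce11 genome are named, without versions, per the submitters' processing notes. The sources used here do not give the kit, its strandedness or any scaling between libraries.

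RefSeq's WBcel235 annotation, which shares coordinates with ce11, paired 47633 accessions (90.7%) with genes, versions ignored, and FPKM were added up per gene. All 17 accessions of the remodeling genes matched with another version than the annotation's. Transcript lengths and overlaps came from Ensembl release 115. Depth was estimated from 1509 genes of 1 transcript, for which 60.9% to 63.5% of low values came within 0.1 of whole fragments. Fragments per gene use annotated lengths and are approximate.

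The main fit was limma 3.58.1 (R 4.3.3), trend option on, of log2(FPKM + 1) for 14652 genes that reached 1 FPKM in 2 or more libraries, with 3.84 moderated degrees of freedom. Tests were two-sided with a Benjamini-Hochberg adjusted p of 0.05 as threshold, and single accessions were fitted likewise. All 9 genes passed this filter in all 4 libraries. Tables were made with pandas 2.3.3 in Python 3.11.15. Genes named by rule were the 9 remodeling genes, dve-1, up to 3 per list with the smallest p, and the 2 protein-coding genes most like each remodeling gene. Named outside it, with values seen, were genes whose exons overlap a remodeling gene, genes listed at 0 (dhc-1, mir-48, mir-84), lin-14, oig-4, unc-30 and snf-11. The 9 genes and the lists were chosen with earlier results of these data known. Tried as alternatives were no trend, library medians set equal, quantile normalization, looser and stricter filters, 0.1 as pseudocount, the replicate number as a block, leaving out each library and using accessions of the same version only. A crossed block was added after the data were seen.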

Additional observations from a re-analysis of the deposited data

How the results depend on the processing

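The count of remodeling genes past the threshold was 0 in each alternative that kept all 4 libraries and gave them a value. With at least 1 FPKM in all 4 libraries, the replicate block or the crossed block, 0 of all genes passed. The count of 0 among the remodeling genes was therefore fixed there and adds nothing. With only accessions of the same version none of the 9 genes was left. When 1 library was left out, the log2 fold change lay between -0.33 and 0.28 for unc-55, -0.39 and 0.45 for hbl-1, -0.33 and 0.16 for oig-1, -0.00025 and 0.37 for ced-3, -0.072 and 0.42 for ced-4, -0.10 and 0.23 for cyy-1, and -0.031 and 0.18 for cdk-5. irx-1 (0.059 to 0.24) and unc-8 (0.029 to 0.12) kept their sign. With quantile normalization unc-55 turned to 0.017 and accession NM_001307365 of unc-8 to 0.058. For single accessions the fold change with 1 library left out ran from -1.66 to -0.30 for NM_001129011 of unc-55, -1.31 to -0.029 for NM_001047779 of hbl-1, -0.60 to 0.71 for NM_001307365, -0.30 to 0.37 for NM_001268779 of ced-3, -0.072 to 0.42 for NM_001026031 of ced-4 and -0.10 to 0.94 for NM_066456 of cyy-1. List medians with 1 library left out ran from -0.14 to 0.058 for heterochronic timing, -0.12 to 0.079 for CED-3 genes, -0.22 to 0.045 for engulfment, -0.14 to -0.024 for CDK-5 and transport, -0.089 to 0.11 for DEG/ENaC and calcium genes, -0.15 to 0.059 for endocytosis, -0.38 to 0.36 for oig genes, and, among markers, -0.21 to 0.066 for GABA neurons, -0.15 to 0.013 for cholinergic neurons, -0.12 to -0.033 for all neurons, -0.21 to 0.12 for body wall muscle, 0.19 to 0.56 for intestine, -0.40 to -0.29 for hypodermis, -0.14 to 0.25 for germline, -0.95 to 0.21 for sperm and -0.31 to 1.18 for oocytes.

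Over all genes 19 passed, against 86 without the trend, 3 with no filter, 0 with at least 1 FPKM in all 4 libraries, 10 with a pseudocount of 0.1, 103 with accessions of the same version, and 0 to 8 with 1 library left out. The cause was not tested. Same-numbered libraries deviated with a correlation of -0.19 across genes, which are not independent replicates. The replicate block called 0 genes, and a crossed pairing, chosen after seeing the data, also called 0 genes. Samples share only a number. Among the remodeling genes, unc-55, unc-8 and oig-1 had the fewest estimated fragments, at 23 to 77, which bears on counting error only. On the FPKM + 1 scale the widest interval belonged to hbl-1, which had more estimated fragments than these genes. That order depends on the pseudocount: with 0.1 the SE was 0.54 for unc-55 and 0.49 for hbl-1. The part of depth in the spread between libraries was not tested.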
